A study of Mus musculus with 11 samples.

Results

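The genes described here are 10 pattern recognition receptors and their partners, taken by gene symbol: Tlr2, Tlr4, Tlr5, Tlr9, Tlr11, Nod2, Cd14, Ly96, Myd88 and Clec7a. Of these, 9 had a row among the 29809 named genes of the count table, and Clec7a was not analysed here. They were followed across the cell types and libraries of a single-cell RNA sequencing study of mouse colonic mucosa in colitis. One library came from Il10-/- mice of about 10 months, which cannot make interleukin 10, a cytokine that restrains inflammation, and whose colitis was shown by raised fecal lipocalin. A set of 9 libraries came from WT mice given 3% DSS (dextran sulfate sodium, a polysaccharide that injures the colonic epithelium) for 6 days, at about 2 months of age. These libraries are named by the day of dissection, counted from the first DSS: days 6, 7, 9 and 11, then days 12, 16 and 18, and last days 19 and 23. The library called uninjured (day 0) came from WT mice of about 2 months that got no DSS. All mice were from the Jackson Laboratory, each library pooled the colons of 3 to 8 mice, and every group had 1 library, so groups were compared by value only. The Il10-/- mice were also about 8 months older than the others, so genotype and age cannot be told apart in these data.

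Pattern recognition receptors are sensors of innate immunity that bind molecules common to microbes. TLR4 reads bacterial lipopolysaccharide (LPS) together with MD-2, encoded by Ly96, after CD14 has handed LPS over. TLR2 reads lipoproteins, TLR5 flagellin, TLR9 unmethylated CpG DNA in endosomes, and TLR11, an endosomal receptor of mice, reads profilin and flagellin. NOD2 is a cytosolic sensor of muramyl dipeptide from bacterial cell walls, and CLEC7A (dectin-1) binds fungal beta-glucans. MYD88 is the adaptor through which nearly all Toll-like receptors signal to NF-kB. The colon is lined by cells that live next to dense bacteria, and receptor levels there differ between epithelial, stromal and immune cells.

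A UMI (unique molecular identifier) tags a captured RNA molecule, here near the 3' end of the transcript, so that copies made later are counted once. Levels are CPM, counts per 1000000 counts of named genes summed over all cells of a class in a library, with exact 95% Poisson intervals that cover counting error only. Libraries held 7963048 to 87491138 UMIs, with a median of 2130.5 to 7845 per cell. Those of days 7, 11 and 18 carry the batch label C (fresh cells, 3 mice each by the authors' cell table) and were the deepest, and the others were frozen and thawed. Of the 54976 cell barcodes, 611 (1.11%) occurred in more than 1 library. The authors' 28 cell types were joined into 16 classes by name, and a class was read in a library only with at least 20 cells. The uninjured library held 0 neutrophils and 67 macrophage-class cells, and DSS day 18 held 168 macrophage-class cells, against 459 to 1464 on the other DSS days.

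The classes were checked against the markers of their names. Summed over 8 monocyte and macrophage markers, the macrophage class had 5414 to 17398 CPM and the neutrophil class 644 to 2150 CPM. Over 7 neutrophil markers, the neutrophil class had 112765 to 306629 CPM and the macrophage class 242 to 10993 CPM. On DSS days 9, 11 and 12 neutrophil markers summed above macrophage markers within the macrophage class, with 6964 against 5414, 10993 against 8795 and 8681 against 6507 CPM. In blood endothelial cells they summed above the 6 endothelial markers in Il10-/- (20550 against 5480 CPM) and on DSS days 7 (28186 against 6160 CPM) and 11 (11294 against 7029 CPM). The macrophage class also held dendritic cell markers, with 52.9 to 528 CPM over 6 genes, and 21.1% of its 8307 cells had at least 1 UMI of them. In the 216 cells that the authors named dendritic, Siglech had 1973 counts, Clec9a 69, and Xcr1 and Zbtb46 had 0.

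Cd14, on chromosome 18, encodes the LPS co-receptor. Its level was 5361 ± 637 CPM in neutrophils (SD, n = 10 libraries; lowest 4622, median 5405, highest 6283). In the macrophage class it was 1694 ± 553 CPM (SD, n = 11; 787, 1685 and 2593). Every library with both classes had more Cd14 in neutrophils (10 of 10), by 1.66 on the log2(CPM + 1) scale (adjusted p = 0.0117, exact sign-flip permutation test, two-sided, adjusted over 36 neighbouring pairs of classes with at least 6 libraries). Macrophages stood 3.64 above blood endothelial cells on the same scale (11 of 11 libraries, adjusted p = 0.0117, exact sign-flip test), where Cd14 ranged from 0 to 758 CPM with a median of 187. The authors' cell types were made from the same counts, so such an order is in part set by the naming. Pooled over libraries, which gives the deep libraries of batch label C the most weight, neutrophils held 68.1% of all 361037 Cd14 counts, the macrophage class 20.2% and columnar epithelial cells 7.51%. By library, neutrophils held the most in 6 of 11 and the macrophage class in 5, which were DSS days 6, 16, 19 and 23 and the uninjured library.

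Tlr4 (chr4:66827584-66930284, plus strand, GENCODE annotation of mm10), the signalling receptor for LPS, was low and widely spread. Neutrophils had 44.4 ± 10.0 CPM (SD, n = 10), blood endothelial cells 15.9 ± 8.89, the macrophage class 14.8 ± 5.09, fibroblasts 13.7 ± 3.45 and columnar epithelial cells 12.0 ± 3.80 (SD, n = 11 each). Neutrophils were above endothelial cells in 10 of 10 libraries, by 1.73 in log2(CPM + 1) (adjusted p = 0.0117, exact sign-flip test). The next neighbours in the order did not differ beyond their spread, with adjusted p = 0.889, 0.983 and 0.336 by the same exact test. Within the epithelium the Car4/Ly6g colonocytes had the most, 19.5 ± 4.98 CPM (SD, n = 11), and among endothelial cells the Selp/Sele type had 27.4 ± 4.75 CPM (SD, n = 3). Selp and Sele encode the selectins that activated venules use to catch leukocytes. Pooled over libraries, neutrophils held 36.0% of the 6051 Tlr4 counts and columnar epithelial cells 32.7%. By library, columnar epithelial cells held the most in 4 of 11, neutrophils in 3, the macrophage class in 3 and fibroblasts in 1.

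Ly96 (chr1:16688051-16709611, plus strand), which encodes the LPS-binding partner MD-2, had its highest mean outside the immune cells. Blood endothelial cells had 55.8 ± 25.96 CPM, lymphatic endothelial cells 35.7 ± 12.7, neutrophils 32.8 ± 11.0 and the macrophage class 30.1 ± 5.79 CPM (SD, n = 11, 8, 10 and 11). None of these neighbours differed beyond their spread over libraries (adjusted p = 0.225, 0.656, 0.858 and 0.173 down to fibroblasts, exact sign-flip test). The Selp/Sele endothelial type reached 74.6 ± 34.0 CPM (SD, n = 3). Pooled over libraries, columnar epithelial cells held 37.8% of the 8353 Ly96 counts, fibroblasts 17.3%, neutrophils 15.5% and the macrophage class 14.4%. By library, columnar epithelial cells held the most in 5 of 11, with shares of 13.7 to 62.3%, the macrophage class in 5, with 2.19 to 42.7%, and neutrophils in 1.

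**Figure D1:**
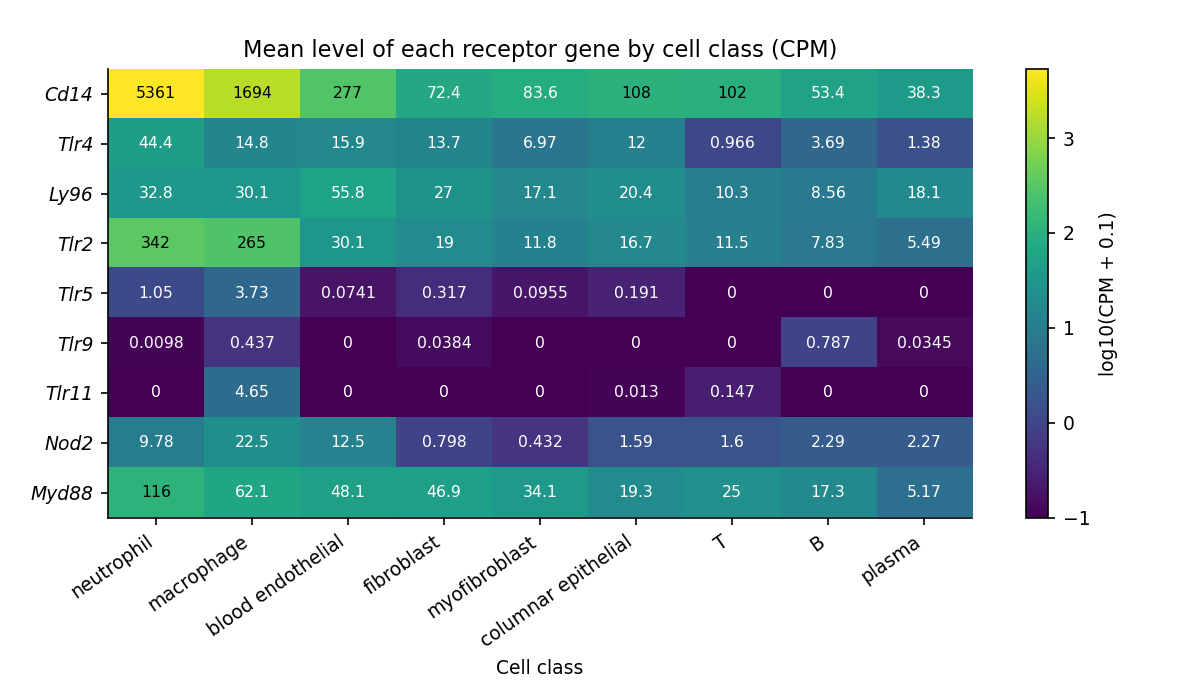
Mean level of 9 receptor genes in 9 cell classes, in CPM (numbers) over the libraries with at least 20 cells of the class, coloured by log10(CPM + 0.1). Cd14, Tlr2, Tlr4 and Myd88 were highest in neutrophils (5361, 342, 44.4 and 116 CPM), and Nod2, Tlr5 and Tlr11 in the macrophage class (22.5, 3.73 and 4.65 CPM).

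Tlr2 (chr3:83836272-83841767, minus strand), the lipoprotein receptor, was shared by both phagocyte classes. Neutrophils had 342 ± 29.2 CPM (SD, n = 10; lowest 298, median 336, highest 396). In the macrophage class the spread was wider, at 265 ± 118 CPM (SD, n = 11; 79.3, 269.7 and 513). The difference was 0.36 in log2(CPM + 1), higher in neutrophils in 9 of 10 libraries, and did not pass the test (adjusted p = 0.173, exact sign-flip test). The macrophage class stood 3.05 above blood endothelial cells (11 of 11 libraries, adjusted p = 0.0117, exact sign-flip test), which had 30.1 ± 12.0 CPM (SD, n = 11). Of the 31108 Tlr2 counts pooled over libraries, 48.3% lay in neutrophils, 36.5% in the macrophage class and 8.44% in columnar epithelial cells. By library, the macrophage class held the most in 6 of 11, with up to 78.6% on DSS day 6, neutrophils in 4 and fibroblasts in 1.

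Tlr5 (chr1:182954788-182976044, plus strand), the flagellin receptor, was close to the limit of detection with 334 counts in all. The macrophage class held 181 of them (54.2%) and had 3.73 ± 3.71 CPM (SD, n = 11; lowest 0, median 2.78, highest 13.9). Neutrophils had 1.05 ± 1.25 CPM (SD, n = 10) and were below the macrophage class in 9 of 10 libraries, by 1.34 in log2(CPM + 1) (adjusted p = 0.0391, exact sign-flip test). The highest value, 13.9 CPM on DSS day 11, came from 1 library.

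Tlr9 (chr9:106222598-106226883, plus strand), the CpG DNA receptor, had 40 counts in the whole study. The macrophage class held 18 and B cells 13 of them, at means of 0.437 and 0.787 CPM, and these classes did not differ beyond their spread (adjusted p = 0.489, exact sign-flip test). The cells that the authors named dendritic held 3. The macrophage class was above fibroblasts, the next in order, in 8 of 11 libraries, by 0.43 in log2(CPM + 1) (adjusted p = 0.0352, exact sign-flip test). This order rests on few molecules. The macrophage class had 1 count on each of DSS days 6, 12, 16, 19 and 23, and at most 6 in any library. Fibroblasts had 4 counts over all libraries.

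Tlr11 (chr14:50357914-50363663, plus strand), the profilin receptor, was concentrated in a single class. Of its 148 counts, 145 (98.0%, exact Clopper-Pearson 95% interval 94.2 to 99.6%) lay in the macrophage class, at 4.65 ± 3.35 CPM (SD, n = 11). Neutrophils had 0 counts in every library. The macrophage class was above T cells, the next in order, in 11 of 11 libraries, by 2.14 in log2(CPM + 1) (adjusted p = 0.0117, exact sign-flip test). Within the macrophage class, 111 of the 145 counts (76.6%, interval 68.8 to 83.2%) lay in the cells with a UMI of a dendritic cell marker, which were 21.1% of its cells. Those cells had 8.74 Tlr11 counts per 1000000 UMIs, and the other cells of the class 1.28. They were also deeper, with a median of 5626.5 UMIs against 3335, which makes a marker UMI more likely to be seen. The cells that the authors named dendritic had 0 Tlr11 counts.

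Nod2 (chr8:88647315-88688474, plus strand), the muramyl dipeptide sensor, was highest by mean in the macrophage class at 22.5 ± 10.4 CPM (SD, n = 11; lowest 3.78, median 26.05, highest 41.2). Blood endothelial cells followed with 12.5 ± 11.1 CPM (SD, n = 11) and neutrophils with 9.78 ± 3.39 CPM (SD, n = 10). The macrophage class was above endothelial cells in 10 of 11 libraries, by 1.23 in log2(CPM + 1), which did not pass (adjusted p = 0.0799, exact sign-flip test). With log2(CPM + 10) in its place the difference was 0.59 and passed (adjusted p = 0.0422, exact sign-flip test). Neutrophils were above B cells by 1.87 (adjusted p = 0.0201, exact sign-flip test). Pooled over libraries, the macrophage class held 53.3% of the 1857 Nod2 counts and columnar epithelial cells 10.1%, and by library the macrophage class held the most in 8 of 11.

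Myd88 (chr9:119335934-119341411, minus strand), the shared adaptor, was present in every class tested. Neutrophils had 116 ± 12.9 CPM (SD, n = 10; lowest 94.2, median 117, highest 137) and the macrophage class 62.1 ± 15.2 CPM (SD, n = 11; 39.0, 61.1 and 84.1). Neutrophils were higher in 10 of 10 libraries, by 0.88 in log2(CPM + 1) (adjusted p = 0.0117, exact sign-flip test). Blood endothelial cells (48.1 ± 20.05 CPM) and fibroblasts (46.9 ± 8.31 CPM; SD, n = 11 each) came next, and the macrophage class did not differ from endothelial cells beyond the spread (adjusted p = 0.257, exact sign-flip test). Pooled over libraries, neutrophils held 32.9% of the 15450 counts, columnar epithelial cells 20.3%, fibroblasts 19.8% and the macrophage class 16.6%. By library, neutrophils, fibroblasts and the macrophage class each held the most in 3 of 11 and columnar epithelial cells in 2.

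**Figure D2:**
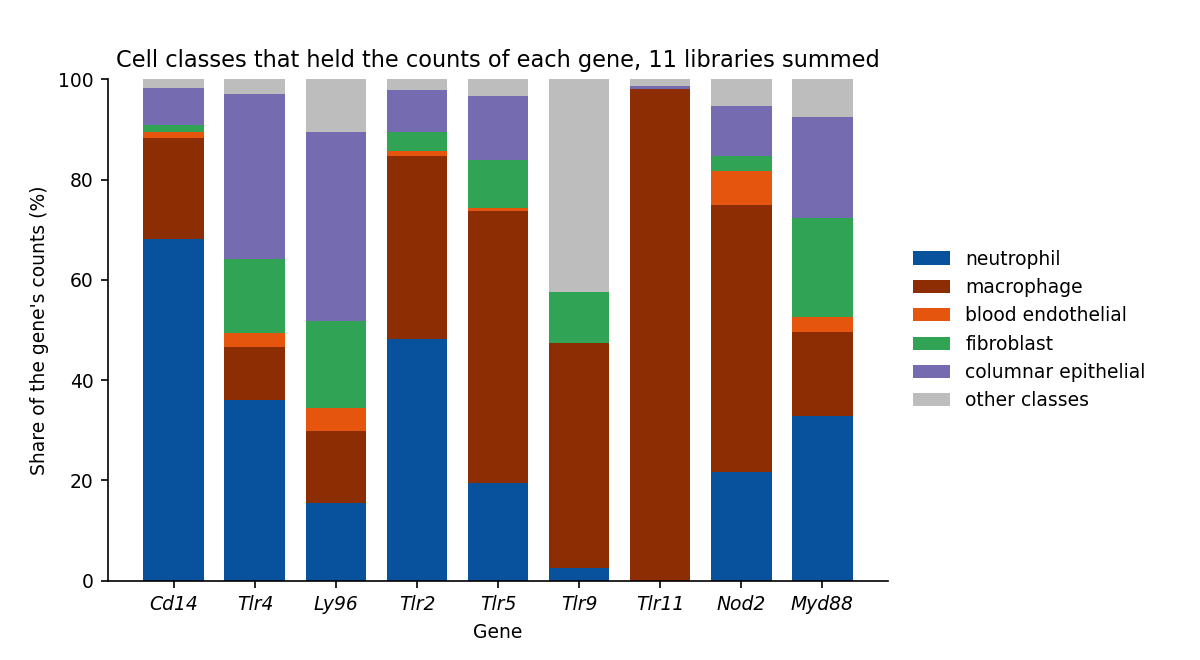
Share of each gene's counts (%) that lay in each cell class, summed over the 11 libraries, so that the deep libraries of batch label C weigh most. In these sums neutrophils held 68.1% of Cd14 and 48.3% of Tlr2, the macrophage class 98.0% of Tlr11 and 53.3% of Nod2, and columnar epithelial cells 37.8% of Ly96, while the macrophage class held the most Cd14 in 5, Tlr2 in 6 and Ly96 in 5 of the 11 libraries.

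The share of cells with a UMI of a gene depends on depth, so each cell was thinned to 1000 UMIs, and 6284 shallower cells were left out. Cd14 was seen in 91.6% of thinned neutrophils (95% interval 91.1 to 92.1%) and 60.7% of macrophage-class cells (59.6 to 61.8%). In B cells, which should lack it, the share was 4.21%, and in columnar epithelial cells 7.36%. Free RNA in droplets gives such UMIs in cells that do not express a gene, so the Cd14 share in B cells is read as background. Without thinning the Cd14 shares were 94.7% of neutrophils, 70.4% of the macrophage class, 32.2% of columnar epithelial cells and 8.16% of B cells, at median depths of 3471, 4268, 6426 and 2243 UMIs among cells deep enough to thin. Tlr2 was seen in 25.7% of thinned neutrophils and 25.1% of macrophage-class cells, whose intervals overlap, against 0.737% of B cells. Tlr4 reached 4.85% of neutrophils and 0.263% of B cells. Myd88 reached 10.3% of neutrophils, 6.89% of macrophage-class cells and 1.13% of B cells. Nod2 reached 2.51% of macrophage-class cells and 0.0263% of B cells. Ly96 reached 4.35% of blood endothelial cells and 0.948% of B cells. Each of the 6 genes was seen in a larger share of cells in the class with its highest level than in B cells. That class was picked by its level in the same counts, so this order is largely set by the choice. The B cell share is read as background for Cd14 alone, since B cells may express the other 5 genes. For the 5 genes other than Cd14 no thinned share given here exceeded 25.7%.

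For each gene with at least 200 counts, the 3 genes with the most similar level across 25 cell types were found by Pearson's r of log2(mean CPM + 1). These are descriptions over types that share libraries. Cd14 was most like Slc7a11 (r = 0.93), a cystine transporter, Fpr2 (r = 0.91), a formyl peptide receptor, and Ifitm6 (r = 0.91). Tlr2 was most like Clec5a (r = 0.90), a myeloid lectin, Klra2 (r = 0.89) and Pilrb2 (r = 0.88). Myd88 was most like Picalm (r = 0.90), an endocytosis adaptor, Ctsd (r = 0.88), a lysosomal protease, and Rela (r = 0.88), the p65 subunit of NF-kB. Nod2 was most like Chil3 (r = 0.80), a chitinase-like protein of myeloid cells, Csf2rb (r = 0.78), a cytokine receptor chain, and Piwil2 (r = 0.77). Tlr4 was most like Alas1 (r = 0.85), Vmp1 (r = 0.83) and Sat1 (r = 0.83), and Ly96 was most like Reep3 (r = 0.87), Rnf185 (r = 0.87) and Zfand5 (r = 0.85). Tlr5 was most like Adgb (r = 0.98), Map3k15 (r = 0.90) and Pla2g2d (r = 0.87).

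The change with time was tested over the 9 DSS libraries within each class, as the slope in log2 units per 10 days with the batch label as a term. In the macrophage class 4 of the 8 receptor genes tested passed (edgeR, adjusted p under 0.05), against 12.4% of all genes tested there. Tlr2, Nod2 and Myd88 fell with day (7.13% of all genes fell), and Tlr11 rose (5.28% of all genes rose). Without the batch term only Myd88 passed (adjusted p = 0.0493), and Tlr2, Nod2 and Tlr11 had adjusted p = 0.249, 0.111 and 0.0712 (edgeR). The median slope of the 8 was -0.42, against 0.01 over all genes tested. Fewer cells of a state within the class and less RNA per cell cannot be told apart in summed counts. Neutrophil markers in the class summed to 242 CPM in the uninjured library, 3051 on DSS day 6, 5621 on day 7, 6964 on day 9, 10993 on day 11, 8681 on day 12, 1534 on day 16, 2389 on day 18, 1161 on day 19 and 702 CPM on day 23. Of these 7 markers 1 fell, with a median slope of -1.21 over the 7, and their part in the falls was not tested.

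Promoter sequence is shown for these 4 genes, from 250 bases before to 50 after the start of the RefSeq gene, 5' to 3' on the strand of the gene (GRCm38.p6). Capitals mark letters that match GGG, any 5 bases and CC (NF-kB), GAAA, any 2 bases and GAAA (interferon response element), or GAGGAA (the core bound by the myeloid factor PU.1), searched on both strands. Such matches occur in 50.8%, 3.44% and 28.3% of all 32851 promoters of this length. The Tlr2 window is chr3:83841559-83841858 (minus strand), Nod2 chr8:88647097-88647396 (plus), Myd88 chr9:119339969-119340268 (minus) and Tlr11 chr14:50357664-50357963 (plus). The RefSeq start used for Myd88 lies 1393 bases inside the GENCODE gene, so its window is not upstream of that gene's outermost start, and the offset was 159 bases for Tlr2, 32 for Nod2 and 0 for Tlr11.
Tlr2: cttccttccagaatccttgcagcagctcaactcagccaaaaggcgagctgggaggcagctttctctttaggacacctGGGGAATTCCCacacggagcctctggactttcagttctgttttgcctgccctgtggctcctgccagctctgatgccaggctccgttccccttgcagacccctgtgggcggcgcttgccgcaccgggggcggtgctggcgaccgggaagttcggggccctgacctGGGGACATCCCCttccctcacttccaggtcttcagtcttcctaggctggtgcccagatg
Nod2: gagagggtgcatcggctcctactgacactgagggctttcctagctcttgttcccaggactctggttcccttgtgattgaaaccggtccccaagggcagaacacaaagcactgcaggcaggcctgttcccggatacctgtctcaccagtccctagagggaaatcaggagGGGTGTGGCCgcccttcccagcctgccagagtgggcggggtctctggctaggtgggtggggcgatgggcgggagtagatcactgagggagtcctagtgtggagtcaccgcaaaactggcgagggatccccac
Myd88: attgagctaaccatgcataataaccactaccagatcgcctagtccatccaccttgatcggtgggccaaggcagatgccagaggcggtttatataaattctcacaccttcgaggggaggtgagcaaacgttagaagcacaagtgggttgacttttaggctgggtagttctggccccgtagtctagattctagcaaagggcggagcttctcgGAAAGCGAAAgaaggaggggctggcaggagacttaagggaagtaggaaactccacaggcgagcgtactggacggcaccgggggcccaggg
Tlr11: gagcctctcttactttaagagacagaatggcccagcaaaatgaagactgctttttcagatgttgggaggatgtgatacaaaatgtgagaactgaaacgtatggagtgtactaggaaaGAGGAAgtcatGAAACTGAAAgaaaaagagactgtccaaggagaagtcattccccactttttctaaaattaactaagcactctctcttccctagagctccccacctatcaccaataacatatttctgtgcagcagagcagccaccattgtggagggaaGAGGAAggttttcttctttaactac
The Tlr2 window held 5 overlapping matches to the NF-kB pattern in 2 stretches, and the Nod2 window 1. The Myd88 window held 1 interferon response element. The Tlr11 window held 1 interferon response element and 2 GAGGAA, with no NF-kB match, and its GC content was 42%, against a median of 52.7% over all promoters and 62% for Tlr2. A match describes these letters only, and no factor binding was measured.

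Tlr2, the lipoprotein receptor, had its highest macrophage-class level at the end of the DSS treatment. Its level in the macrophage class was 79.3 CPM in the uninjured library (21 counts), 513 on DSS day 6, 299.7 on day 7, 321 on day 9, 269.7 on day 11, 346 on day 12, 269.5 on day 16, 112 on day 18, 295 on day 19 and 195 CPM on day 23. All DSS days were above the uninjured value, and day 6 was the highest. The slope was -0.83 ± 0.14 (SE; adjusted p = 0.00388, edgeR). Fitted on the 6 unlabelled DSS libraries alone, the slope was -0.66 (adjusted p = 0.000999, edgeR). On day 6 the level was 6.47 times that of the uninjured library (exact 95% Poisson interval 4.22 to 10.5) and on day 23 2.45 times (1.58 to 4.01), while on day 18 the interval of the ratio included 1 (1.41, 0.900 to 2.34).

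Nod2, the muramyl dipeptide sensor, followed a like course in the macrophage class. It stood at 3.78 CPM in the uninjured library (1 count), 41.2 on DSS day 6, 30.4 on day 7, 27.9 on day 9, 26.7 on day 11, 27.5 on day 12, 26.05 on day 16, 12.5 on day 18, 23.4 on day 19 and 14.8 CPM on day 23. Days 6 and 7 were the highest and days 18 and 23 the lowest DSS values. The slope was -0.77 ± 0.14 (SE; adjusted p = 0.00373, edgeR), and -0.64 over the 6 libraries with no batch label (adjusted p = 0.00771, edgeR). The ratio of day 6 to the uninjured library was 10.9, with a counting interval of 1.92 to 435.

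Myd88, the adaptor, fell more evenly. Its level in the macrophage class was 45.3 CPM in the uninjured library (12 counts), 84.1 on DSS day 6, 82.2 on day 7, 71.3 on day 9, 74.7 on day 11, 68.9 on day 12, 61.1 on day 16, 55.2 on day 18, 53.1 on day 19 and 48.4 CPM on day 23. Day 11 was the one value above that of the DSS day before it. The slope was -0.51 ± 0.083 (SE; adjusted p = 0.00211, edgeR), and -0.47 over the 6 libraries with no batch label (adjusted p = 0.00704, edgeR). By day 23 the ratio to the uninjured library was 1.07 (0.584 to 2.14), and on day 6 it had been 1.86 (1.04 to 3.65).

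Tlr11, the profilin receptor, rose with day. Its macrophage-class level was 7.55 CPM in the uninjured library (2 counts), 1.41 on DSS day 6, 2.48 on day 7, 1.41 on day 9, 1.55 on day 11, 2.78 on day 12, 5.67 on day 16, 12.5 on day 18, 4.59 on day 19 and 5.60 CPM on day 23. The 4 latest DSS days were above the 5 earliest. The slope was 1.60 ± 0.37 (SE; adjusted p = 0.0140, edgeR), and 1.26 over the 6 libraries with no batch label (adjusted p = 0.0370, edgeR). Without DSS day 18 it was 1.12 and did not pass (adjusted p = 0.0936, edgeR).

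Dendritic cell markers and Tlr11 were both high in the macrophage class on DSS day 18. The cells with a UMI of 1 of the 6 markers made up 53.6% of the class on DSS day 18, against 15.1 to 36.7% on the other DSS days and 8.96% in the uninjured library. Such a share grows with depth, which was not held equal here. In cells of the class with no marker UMI the median depth was 2433 UMIs for DSS day 6. Under batch label C it was 10816.5 UMIs (day 7), 9906 (day 11) and 8376 (day 18). The other days of that label, 7 and 11, thus had deeper such cells than day 18 but lower shares, 36.7% and 24.2%. Without the label the highest share was 23.7%, on day 23. Summed over the 6 genes, the markers were highest on DSS day 7 (528 CPM), where Tlr11 had 2.48 CPM, and lowest in the uninjured library (52.9 CPM), where Tlr11 had 7.55 CPM. Xcr1, a chemokine receptor of cross-presenting dendritic cells, had 89.4 CPM in the class on day 18 and 11.3 to 34.6 CPM on the other DSS days. Its slope was 1.28 ± 0.35 (SE; adjusted p = 0.0530, edgeR), and that of Clec9a, a lectin of the same cells, was 1.14 ± 0.33 (SE; adjusted p = 0.0530, edgeR); of the 6 markers, 0 passed. The part of dendritic cell RNA in the Tlr11 slope was not tested. Of 8 monocyte and macrophage markers tested in the class, 2 rose and 0 fell, with a median slope of 0.23. The 2 were C1qa and C1qc, complement genes of resident macrophages (slopes 1.09 and 0.99, adjusted p = 0.0348 and 0.0423, edgeR). Of 7 neutrophil markers 1 fell, Csf3r (slope -0.81, adjusted p = 0.00514, edgeR). Of all genes tested in the class 5.28% rose and 7.13% fell.

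The fit was repeated on the 6555 macrophage-class cells of all libraries with no UMI of the 6 dendritic markers, a choice made after these values were seen. Tlr2, Nod2 and Myd88 fell there too, with slopes of -0.56, -0.78 and -0.48 (adjusted p = 0.000896, 0.00269 and 0.00401, edgeR). In those cells Tlr2 had 276 counts per 1000000 UMIs on day 18, the second lowest DSS value after the 272 of day 23. The uninjured library had 85.9 (18 counts) by the same measure. Tlr11 was not among the genes tested in those cells, where it had 34 counts over all libraries.

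**Figure D3:**
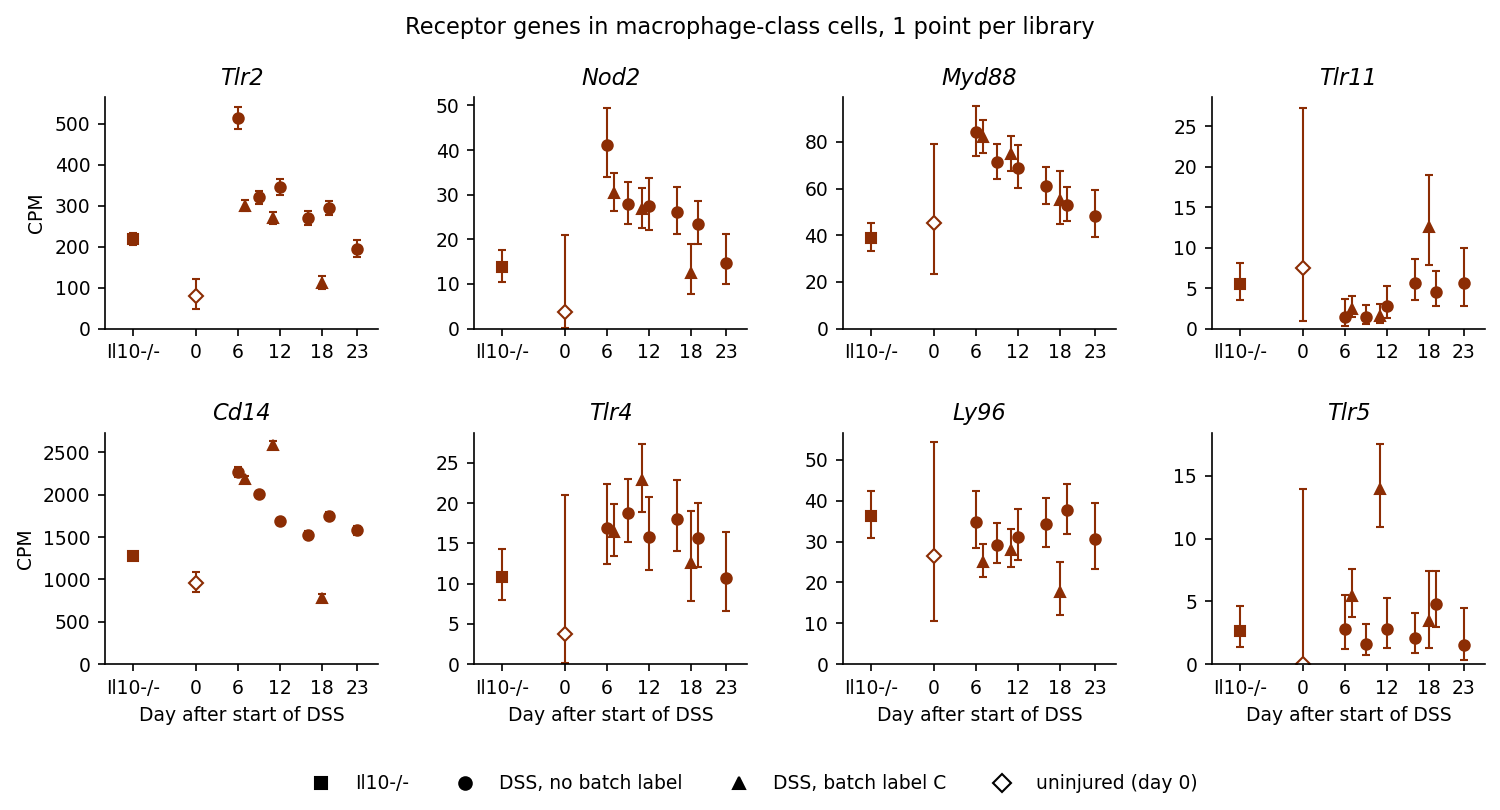
Level (CPM) of 8 receptor genes in macrophage-class cells by day after the start of DSS, 1 point per library with its exact 95% Poisson interval, with Il10-/- at the left and the uninjured library at day 0. Triangles are the libraries with batch label C. Tlr2, Nod2 and Myd88 were highest on day 6 (513, 41.2 and 84.1 CPM) and lower on later days, and Tlr11 was highest on day 18 (12.5 CPM).

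The other receptor genes of the macrophage class did not pass the test. Cd14, the LPS co-receptor, had 963 CPM in the uninjured library, 2269 on DSS day 6, 2191 on day 7, 2009 on day 9, 2593 on day 11, 1685 on day 12, 1529 on day 16, 787 on day 18, 1755 on day 19 and 1579.9 CPM on day 23. Its slope was -0.54 ± 0.24 (SE; adjusted p = 0.176, edgeR), and all DSS days but day 18 were above the uninjured library. In the cells with no dendritic marker UMI the slope was -0.30 (adjusted p = 0.0735, edgeR). Tlr4 ranged from 10.7 to 22.8 CPM over the DSS days, against 3.78 CPM (1 count) in the uninjured library, with a slope of -0.33 ± 0.18 (SE; adjusted p = 0.231, edgeR). Ly96 ranged from 17.6 to 37.6 CPM, against 26.4 CPM (7 counts) in the uninjured library, and Tlr5 from 1.53 to 13.9 CPM, against 0; their slopes of -0.08 and 0.03 had adjusted p = 0.715 and 0.977 (edgeR).

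Other genes of the same pathways were counted in the macrophage class from lists chosen by function. Among the other Toll-like receptors and their chaperones, 2 of 11 rose and 1 fell. Tlr12, the partner of TLR11 in profilin sensing, rose with a slope of 1.59 ± 0.20 (SE; adjusted p = 0.000707, edgeR). Its levels were 41.5 CPM in the uninjured library (11 counts), 7.04 on DSS day 6, 3.88 on day 7, 10.1 on day 9, 4.45 on day 11, 25.6 on day 12, 29.9 on day 16, 17.6 on day 18, 37.9 on day 19 and 47.4 CPM on day 23. Unlike Tlr11, it was not at its highest on day 18. Cd180, a TLR4-like receptor of B cells and macrophages, rose (slope 0.86 ± 0.20, SE; adjusted p = 0.0160, edgeR). B cell markers in the class summed to 6.20 to 43.3 CPM over the DSS days, against 3.78 CPM in the uninjured library, and 2 of the 3 tested rose (median slope 1.53); their part in the rise of Cd180 was not tested. Tlr6, the partner of TLR2 for diacylated lipoproteins, fell (slope -0.65 ± 0.19, SE; adjusted p = 0.0416, edgeR). The Tlr12 promoter window, chr4:128618570-128618869 (minus strand), is shown beside that of its partner above and held 1 NF-kB match in capitals.
Tlr12: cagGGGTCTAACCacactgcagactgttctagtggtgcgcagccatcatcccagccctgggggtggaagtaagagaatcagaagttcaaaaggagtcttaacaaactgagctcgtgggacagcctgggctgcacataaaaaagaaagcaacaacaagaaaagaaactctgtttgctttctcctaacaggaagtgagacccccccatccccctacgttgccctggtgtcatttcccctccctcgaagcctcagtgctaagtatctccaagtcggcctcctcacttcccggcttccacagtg

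In the other lists some genes fell and 0 rose, where 7.13% of all genes tested in the class fell and 5.28% rose. Of 20 adaptors and kinases, 8 fell and 0 rose, among them Nfkb1 (slope -0.66 ± 0.10), Syk, the kinase used by dectin-1 (-0.63 ± 0.11), and Rela (-0.50 ± 0.098; SE; adjusted p = 0.00176, 0.00359 and 0.00644, edgeR). Their median slope was -0.36. Of 10 brakes on the pathway, 3 fell, which were Tollip (slope -0.49), Tnip1 (-0.72) and Tnfaip3 (-0.68), the last a ubiquitin editor known as A20 (adjusted p = 0.0148, 0.0370 and 0.0443, edgeR). Of 11 C-type lectins and scavenger or formyl peptide receptors tested, 4 fell, including Fpr2 (slope -1.36), Clec4e, which encodes the lectin Mincle (-1.07), and Fpr1 (-2.27; adjusted p = 0.00862, 0.0318 and 0.0325, edgeR). Of 15 cytosolic sensors tested, 3 fell, namely Naip2 (slope -0.64), Nod1 (-0.57) and Ifih1 (-0.43; adjusted p = 0.0205, 0.0307 and 0.0340, edgeR). Of 12 induced targets, 1 fell, Il1b (slope -0.43, adjusted p = 0.0394, edgeR), a share near that of all genes.

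In neutrophils 0 of the 6 receptor genes tested passed (edgeR; 2.61% of all genes did, and 2.03% fell), 2 had an unadjusted p under 0.05, and DESeq2 called 0. Cd14 had 5729 CPM on DSS day 6, 4829.7 on day 7, 4622 on day 9, 5728 on day 11, 4772 on day 12, 5082 on day 16, 4630.2 on day 18, 6029.9 on day 19 and 6283 CPM on day 23. The highest value was thus at the end of the course, and the fitted slope, on TMM-scaled counts with the batch term, was -0.22 ± 0.13 (SE; adjusted p = 0.370, edgeR). Tlr2 ranged over the DSS days from 298 to 396 CPM with a median of 336, and its slope was -0.36 ± 0.14 (SE; adjusted p = 0.166, edgeR). Myd88 ranged from 94.2 to 129 CPM (slope -0.37 ± 0.14, SE; adjusted p = 0.163, edgeR). Tlr4 ranged from 32.0 to 60.1 CPM, Ly96 from 18.6 to 48.7 CPM and Nod2 from 6.09 to 15.1 CPM, with slopes of -0.16, 0.05 and -0.46 (adjusted p = 0.702, 0.935 and 0.431, edgeR).

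Around these receptors some pathway genes of neutrophils fell. Among 9 brakes tested, 3 fell, which were Tnfaip3 (slope -0.97), Tnip1 (-0.91) and Irak3 (-1.30), which encodes a kinase-dead inhibitor of the MYD88 pathway (adjusted p = 0.00576, 0.0171 and 0.0189, edgeR). Of 16 adaptors and kinases 2 fell, Nfkb1 (slope -0.83) and Malt1 (-0.71; adjusted p = 0.0305 and 0.0382, edgeR). Of 8 lectins and formyl peptide receptors 2 fell, Fpr1 (slope -1.11) and Fpr2 (-0.74; adjusted p = 0.00391 and 0.0118, edgeR), and of 11 induced targets 1 fell, Nfkbiz (slope -0.77, adjusted p = 0.0119, edgeR). None of the listed genes rose in neutrophils; of the 8 other Toll-like receptors and the 14 cytosolic sensors tested, 0 were called. Of the 7 neutrophil markers 3 fell in the same fit, S100a8, S100a9 and Mmp9, with a median slope of -0.89 over the 7, and their part was not tested.

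**Figure D4:**
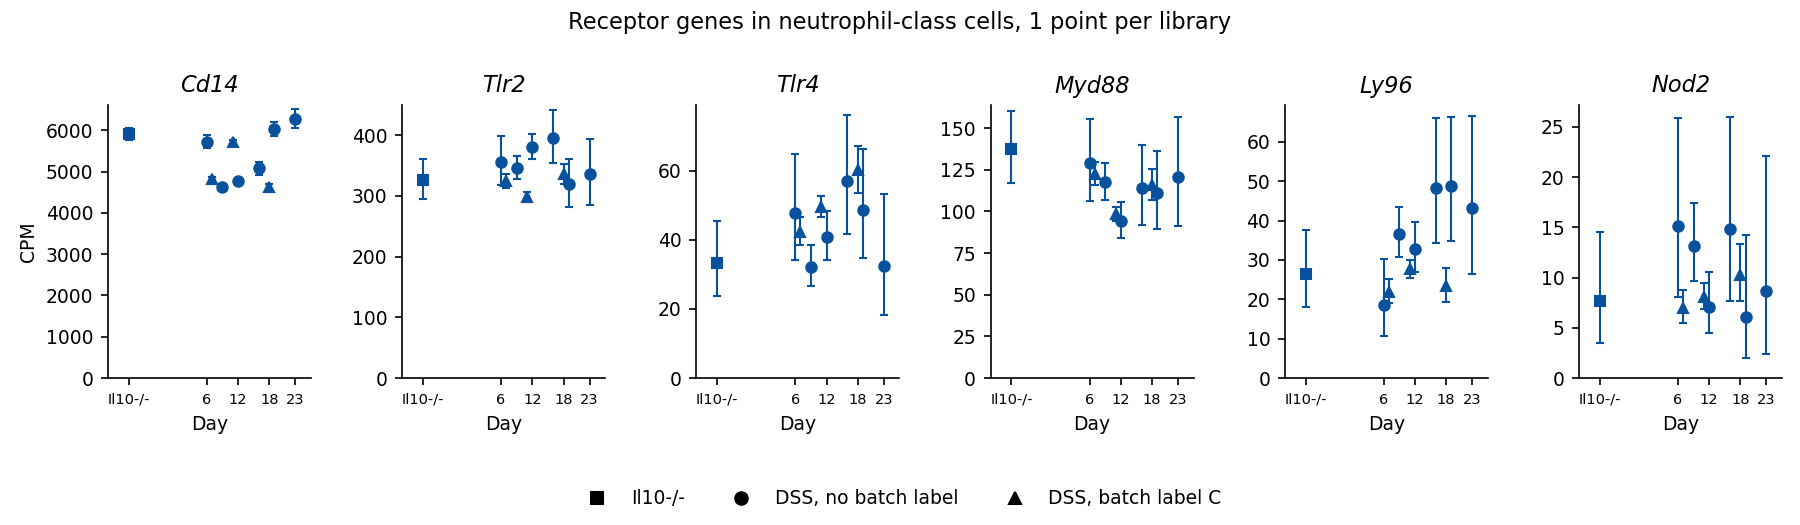
Level (CPM) of 6 receptor genes in neutrophils by day after the start of DSS, 1 point per library with its exact 95% Poisson interval, with Il10-/- at the left. The uninjured library held 0 neutrophils and has no point. Cd14 stayed between 4622 and 6283 CPM and Tlr2 between 298 and 396 CPM.

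Whether the slopes differed between classes was tested within libraries. For neutrophils minus the macrophage class 0 of 6 receptor genes passed (edgeR; 1.16% of all genes did), with 1 at an unadjusted p under 0.05. The difference was 0.48 ± 0.20 for Tlr2, 0.35 ± 0.18 for Cd14 and 0.13 for Myd88 (SE; adjusted p = 0.280, 0.381 and 0.795, edgeR). For fibroblasts minus the macrophage class 0 of 6 passed (edgeR; 3.62% of all genes did), again with 1 at an unadjusted p under 0.05. There the difference was 0.40 ± 0.20 for Tlr2, 0.44 ± 0.18 for Myd88 and -0.52 ± 0.29 for Cd14 (SE; adjusted p = 0.263, 0.173 and 0.371, edgeR). A fall of Tlr2 or Myd88 that is particular to the macrophage class was therefore not shown.

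Blood endothelial cells had the steepest fitted slope of Cd14 among the 9 classes tested. Of 3 receptor genes tested there, 1 passed, Cd14, against 1.3% of all genes in either direction and 0.424% that fell. Its level was 0 CPM in the uninjured library (43 cells), 414 on DSS day 6, 576 on day 7, 217 on day 9, 501 on day 11, 187 on day 12, 139 on day 16, 169 on day 18, 50.4 on day 19 and 34.5 CPM on day 23. The slope was -1.90 ± 0.21 (SE; adjusted p = 7.05e-05, edgeR), and -1.98 over the 6 libraries with no batch label (adjusted p = 3.49e-05, edgeR). Only 27 to 73 endothelial cells stood behind each of those 6 values, and 491, 228 and 192 behind days 7, 11 and 18. In the same class the A20 gene Tnfaip3 (slope -1.003), its partner Tnip1 (-1.24), Clec4e (-2.58) and the itaconate enzyme gene Acod1 (-2.32) fell (adjusted p = 0.00700, 0.00769, 0.00700 and 0.00793, edgeR).

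Neutrophil RNA was also present in endothelial cells, at a level that differed between days. Summed over 7 neutrophil markers it was 9.97 CPM in the uninjured library, 1921 on DSS day 6, 28186 on day 7, 2812 on day 9, 11294 on day 11, 6547 on day 12, 398 on day 16, 1008 on day 18, 514 on day 19 and 252 CPM on day 23. There S100a8 and Retnlg, both neutrophil genes, had slopes of -3.38 and -4.36 that did not pass (adjusted p = 0.213 and 0.146, edgeR). Cd14 counts per S100a8 count in endothelial cells were above the ratio of the whole library in 9 of 10 libraries, by a median of 1.52 times. In cells with no UMI of S100a8, S100a9 or Lyz2, a subset chosen after the data were seen, Cd14 had 6 counts in 39 cells on day 7, 60 counts in 61 cells on day 18 and 1 count in 30 cells on day 19. On day 23 it had 3 counts in 42 such cells, and in the uninjured library 0 in 41. The part of neutrophil RNA in the endothelial Cd14 trend was not tested.

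Cd14 was also measured in the other classes of the tissue, where fewer calls were made. The fitted slope was negative in 9 of 9 classes, of which 2, blood endothelial and plasma cells, passed. The classes came from the same libraries and share their mice and free RNA, so the 9 slopes are not independent. Cd14 in B cells, 1 of the 9, is read as background above. Plasma cells had a slope of -0.98 ± 0.24 over 7 libraries (SE; adjusted p = 0.00725, edgeR), as 1 of 5 receptor genes tested, against 1.47% of all genes in either direction, 0.644% that fell and 0.823% that rose. DESeq2 did not call it (adjusted p = 0.116), and without DSS day 6, 18 or 23 edgeR gave adjusted p = 0.374, 0.107 and 0.800. Of 7 neutrophil markers 3 fell in plasma cells, and of 8 macrophage markers 6 rose; their part in the Cd14 trend was not tested.

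In fibroblasts 0 of 5 receptor genes passed (edgeR; 4.65% of all genes did, and 2.65% fell), 2 had an unadjusted p under 0.05, and DESeq2 called 1. Cd14 there had 4.18 CPM in the uninjured library, 94.7 on DSS day 6, 96.8 on day 7, 101 on day 9, 172 on day 11, 80.8 on day 12, 95.2 on day 16, 35.01 on day 18, 58.1 on day 19 and 22.8 CPM on day 23. Every DSS day was above the uninjured library. The slope was -1.18 ± 0.43 (SE; adjusted p = 0.190, edgeR), and DESeq2 gave adjusted p = 0.00484. Without DSS day 11 edgeR gave adjusted p = 0.0291. Tlr2 had a slope of -0.56 ± 0.18 in fibroblasts (SE; adjusted p = 0.0873, edgeR), and without DSS day 16 it passed (adjusted p = 0.0418, edgeR). Neutrophil markers summed to 3.59 to 4731 CPM in fibroblasts and 2 of 7 fell, and their part was not tested.

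In columnar epithelial cells 0 of 6 receptor genes passed (edgeR; 0.229% of all genes did), 3 had an unadjusted p under 0.05, and DESeq2 called 1. Cd14 had 9.72 CPM in the uninjured library, 81.7 on DSS day 6, 195 on day 7, 123 on day 9, 347 on day 11, 109 on day 12, 39.1 on day 16, 110.2 on day 18, 66.5 on day 19 and 46.1 CPM on day 23. Again every DSS day was above the uninjured library, and day 11 was 35.7 times as high (exact 95% Poisson interval 26.4 to 49.5). The slope was -0.88 ± 0.28 (SE; adjusted p = 0.217, edgeR), and DESeq2 gave adjusted p = 0.0482. Neutrophil markers ranged from 4.16 to 12105 CPM in this class. Per S100a8 count, Cd14 was above the ratio of the whole library in 5 of 11 libraries, with a median of 0.867 times that ratio.

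In the remaining classes no receptor gene passed. Myofibroblasts had 0 of 1 called (edgeR; 0% of all genes), T cells 0 of 4 (0.217%) and B cells 0 of 4 (0.876%). At an unadjusted p under 0.05 these counts were 1, 0 and 1, and DESeq2 called 0 in each, with no adjusted p for 3 genes in T cells and 3 in B cells. Cd14 in T cells had a slope of -1.69 (adjusted p = 0.705, edgeR), and over the 6 libraries with no batch label -1.58 (adjusted p = 6.71e-05, edgeR). Without DSS day 11 it passed at -1.34 (adjusted p = 0.000105, edgeR), and without DSS day 7 Tlr2 passed in T cells at -2.15 (adjusted p = 0.00432, edgeR). In B cells the Cd14 slope was -1.55 (adjusted p = 0.495, edgeR), and -1.71 over those 6 libraries (adjusted p = 5.06e-10, edgeR). It passed there without DSS day 7 (-1.92) or day 11 (-1.39; adjusted p = 1.47e-12 and 1.65e-06, edgeR). Neutrophil markers summed to 178 to 16244 CPM in T cells and 13.5 to 5351 CPM in B cells, where 2 fell, and their part was not tested.

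**Figure D5:**
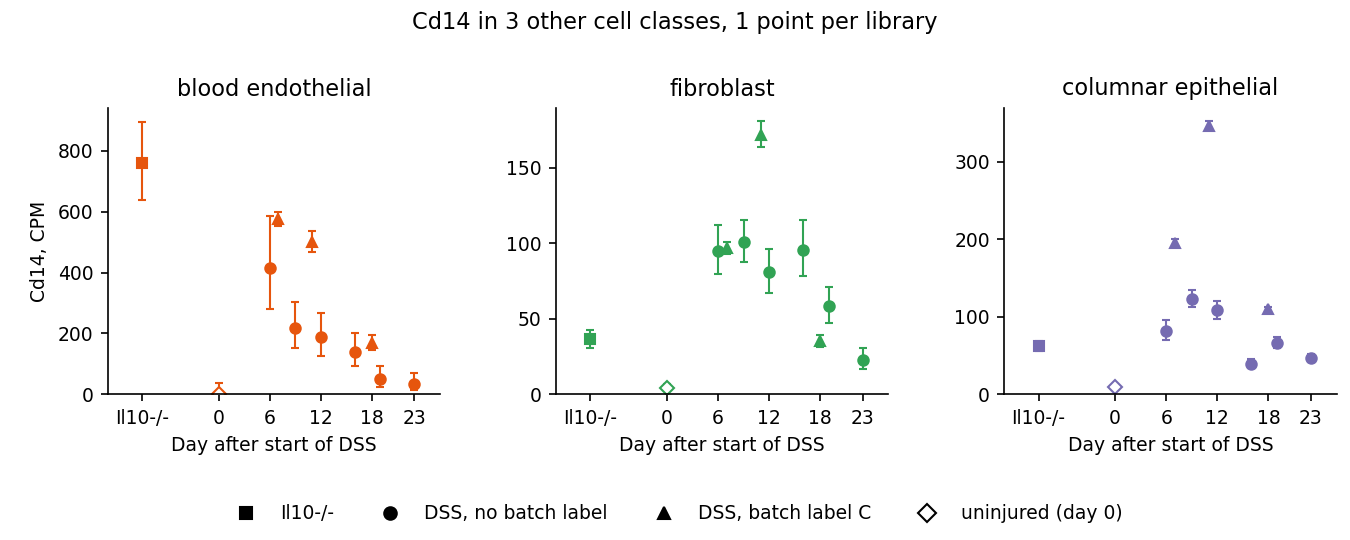
Level of Cd14 (CPM) in blood endothelial cells, fibroblasts and columnar epithelial cells by day after the start of DSS, 1 point per library with its exact 95% Poisson interval, with Il10-/- at the left and the uninjured library at day 0. The scale differs between panels. In all 3 classes each DSS library was above the uninjured library, and endothelial cells of Il10-/- mice had the highest value of that class (758 CPM).

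In the macrophage class of Il10-/- mice Tlr2, Nod2, Myd88, Cd14 and Tlr4 were below most DSS days, and Ly96 and Tlr11 above most. Tlr2 had 219 CPM in Il10-/-, against 79.3 CPM in the uninjured library, a ratio of 2.76 (exact 95% Poisson interval 1.79 to 4.47). Against DSS day 6 the ratio was 0.426 (0.392 to 0.462), and 7 of 9 DSS days were higher. Nod2 had 13.7 CPM in Il10-/-, against 3.78 CPM (1 count) in the uninjured library and 41.2 CPM on DSS day 6, and was below 8 of 9 DSS days. Myd88 had 39.0 CPM in Il10-/-, against 45.3 CPM in the uninjured library, with a ratio of 0.860 whose interval (0.480 to 1.70) included 1, and was below 9 of 9 DSS days. Cd14 had 1275 CPM in Il10-/-, against 963 CPM in the uninjured library (ratio 1.32, 1.17 to 1.51), and was below 8 of 9 DSS days. Tlr11 had 5.53 CPM in Il10-/- (25 counts), against 1.41 CPM on DSS day 6 (4 counts), a ratio of 3.93 (1.36 to 15.5), and was above 6 of 9 DSS days. Tlr4, at 10.8 CPM, was below 8 of 9 DSS days, and Ly96, at 36.3 CPM, was above 8 of 9. In the macrophage class of Il10-/- mice Tlr2, Nod2, Myd88 and Cd14 were nearer to the late DSS libraries than to DSS day 6, by value in 1 library. The cells with a dendritic marker UMI were 22.3% of that class.

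Neutrophils of Il10-/- mice, 6.09% of cells, had 137 CPM of Myd88, above 9 of 9 DSS days. They had 5908 CPM of Cd14, above 7 of 9 DSS days, and 326 CPM of Tlr2, below 6 of 9. In blood endothelial cells of Il10-/- mice Cd14 had 758 CPM, above 9 of 9 DSS days, but the 138 counts came from 7 of 54 cells, and neutrophil markers there summed to 20550 CPM. The 11 endothelial cells with no UMI of S100a8, S100a9 or Lyz2 had 0 Cd14 counts. Fibroblasts of Il10-/- mice had 36.2 CPM of Cd14, against 4.18 CPM in the uninjured library, and columnar epithelial cells 61.8 CPM, against 9.72 CPM, a ratio of 6.36.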

How the data were processed

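Per the submitters' processing notes, the authors made the counts with Cell Ranger 3.0.0 on the mm10 mouse genome. The values deposited are raw UMI counts, whole numbers for each gene in each cell, with cell types named by the authors. From 14 libraries in the matrix, 11 (55603 cells) matched a sample and entered the work, and 3 (12621 cells) did not. Gene rows with a placeholder name (597, 0.517% of counts) were left out. The cells had been filtered by the authors, and no doublet caller was run here. Counts were summed per library and class. Day trends were fitted where 7 or more DSS libraries had 20 or more cells of a class, with edgeR 4.0.16 (quasi-likelihood, robust, TMM, filterByExpr; terms day and batch label; R 4.3.3) with Benjamini-Hochberg adjustment over all genes of the class. Slope differences between classes kept the library as a block. Levels were ordered with exact two-sided sign-flip tests over libraries. Ratios were given only where 1 library of the pair had at least 20 counts, with exact Poisson intervals, and shares have exact Clopper-Pearson intervals; both cover counting error only. Nothing says which mice entered which pool beyond the group. Each DSS day was 1 pool, so trend p-values measure the spread of pools around a fitted line over days. Differences between pools and departures from that line cannot be told apart. Sign-flip p-values measure how a class difference varied over libraries that differ in day, genotype and batch label. The trend step was tested on simulated data. Alternatives were DESeq2 1.42.0, RLE scaling, no filter, no batch term, unlabelled libraries alone, stricter cells (at least 1000 UMIs, at most 20% mitochondrial) and leaving out each library. All receptor genes are named, with up to 3 called genes of lowest p in each direction per pathway list. The receptor genes and lists were chosen with earlier results of these data known. Promoters are from RefSeq and gene positions from GENCODE.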

Additional observations from a re-analysis of the deposited data

How the results depend on the processing

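Of 349 alternative values of receptor gene slopes, 313 kept their direction and their side of the threshold; 10 no longer passed, 11 newly passed and 15 reversed. The cause was not tested for any of them. Without a batch term the macrophage class had 0 receptor genes that rose and 1 that fell, Tlr2 with a slope of -0.64 (adjusted p = 0.249, edgeR), Nod2 with -0.67 (0.111) and Tlr11 with 1.49 (0.0712) no longer passing; only in that fit and for Tlr11 without DSS day 18 were macrophage calls lost. In cells with no dendritic marker UMI 0 rose, since Tlr11 was too low there to be tested. Leaving out each library in turn gave 3 that fell in every case and 0 to 1 that rose. Endothelial Cd14 passed in every alternative run, with slopes of -2.07 to -1.81 when 1 library was left out. No run was limited to endothelial cells with no S100a8, S100a9 or Lyz2 UMI, so these runs do not bear on neutrophil RNA. With no filter on low counts 2 receptor genes fell in endothelial cells.

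The number that fell was 1 by DESeq2 in columnar epithelial cells and in fibroblasts, 1 in T cells with no filter and over the libraries with no batch label, 1 in B cells over those libraries, and 0 in plasma cells by DESeq2, with no batch term and over those libraries. With 1 library left out it ranged from 0 to 1 in fibroblasts, T, B and plasma cells. Over the same omissions 0 to 1 slope differences passed for fibroblasts minus the macrophage class (Myd88, 0.64, adjusted p = 0.0401, edgeR, without DSS day 7).

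Slopes near 0 changed sign. Macrophage-class Tlr5 was -0.040 by DESeq2, -0.45 with no batch term, -0.090 in stricter cells and -0.42 to 0.56 with 1 library left out (reversed at -0.42, -0.25, -0.13 and -0.0064). Ly96 there was 0.045 with no batch term, 0.039 over the libraries with no batch label, 0.086 in cells with no dendritic marker UMI and -0.17 to 0.032 with 1 library left out. Neutrophil Ly96 was -0.021 with no filter and -0.27 to 0.27 with 1 library left out (-0.012 without DSS day 19), and neutrophil Tlr4 -0.23 to 0.065.

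Of the 36 neighbouring pairs of classes, 9 differed. Over the libraries with no batch label 0 did, where the smallest adjusted p (exact sign-flip test) was 0.0938. Fewer libraries raise the smallest p that the exact test can give, so this setting cannot tell a lost difference from lost power. Thinned to 500 UMIs, Cd14 was seen in 80.6% of neutrophils and 42.9% of macrophage-class cells, and Tlr2 in 14.7% and 13.8%; unthinned, in 94.7% and 70.4%, and 53.4% and 49.0%. In stricter cells neutrophils held 39.0% of Tlr4 counts and columnar epithelial cells 34.1% of Ly96 counts. Endothelial Cd14 in cells with no S100a8, S100a9 or Lyz2 UMI was 39.5 on day 7, 211 on day 18 and 12.2 on day 19, in counts per 1000000 UMIs. Groups could not be paired with each other because each has 1 library and the labels carry no replicate numbers. Classes were paired within libraries. Depth limits Tlr5, Tlr9 and Tlr11 most, and the uninjured macrophage class, where Nod2 and Tlr4 had 1 count each.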

Other observations

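The macrophage class used here joins 8171 cells that the authors named monocyte or macrophage and 136 cells that they named proliferating macrophage (1.64% of the class). The proliferating cells had 107 CPM of Cd14, against 1922 CPM in the other cells of the class, and 23.7 CPM of Tlr2, against 298 CPM. For Tlr11 the order was the other way round, with 9.83 CPM in proliferating cells (12 counts), against 3.51 CPM (133 counts). These values pool all libraries and were not tested.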
